A study of Mus musculus with 6 samples.

Results

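The cells described here are preadipocytes of mouse inguinal white adipose tissue (iWAT) that held transcripts of Tfpi2, Scg3, Cyp26b1 or Mcoln2. They were chosen by measured values in all 6 single-cell RNA-seq libraries. A barcode was kept with at least 2000 UMIs (unique molecular identifiers, each of which marks 1 captured transcript), under 10% mitochondrial UMIs, Dcn at 30 or more per 10000 UMIs, and no UMI of Pecam1, Cdh5 or Ptprc. It also had at least 2 UMIs of Scg3, Tfpi2, Cyp26b1 and Mcoln2 in sum, at most 2 of Pi16, and at most 1 of Fmo2 and Cyp2f2 in sum. The rule gave 4778 barcodes, 10.2% of 46975 adipose stem and progenitor cells (ASPCs, the barcodes that passed the limits on UMIs, mitochondrial UMIs, Dcn, Pecam1, Cdh5 and Ptprc) and 7.02% of 68103 barcodes in all. Because the 4 genes chose the cells, their levels in them are descriptions, and the gated cells were not tested against other cells.

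The series asked how aging changes the response of iWAT to cold. Male C57BL/6 mice, young (9 weeks) or aged (57 weeks), were first held at 30 °C. They then stayed at 30 °C (thermoneutrality, TN) or were moved to 6 °C for the last 3 days (3D) or for 14 days (14D). They were housed singly during this final temperature phase. The labels do not say which libraries came from the J or the JN substrain. The inguinal lymph node was removed, the tissue was digested to stromal vascular cells, and live CD45- cells were sorted, so that most immune cells were excluded by the sort and mature adipocytes by the digestion. There was 1 library for each age and temperature. The number of mice in each is not given in the sources used here (the methods call mice unpooled except where noted). The p-values therefore measure the spread between libraries of different conditions. No spread between mice, or between replicate libraries of 1 condition, could be measured.

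iWAT preadipocytes are fibroblast-like cells that can take up fatty acids, lay down a basement membrane and differentiate into fat cells, and a second, Dpp4+ Pi16+ fibroblast population is thought to lie upstream of them. The genes of the rule belong to different pathways. Tfpi2 encodes a secreted inhibitor of serine proteases, Scg3 a granin that sorts cargo into secretory granules, Cyp26b1 an enzyme that degrades retinoic acid, and Mcoln2 a cation channel of the endolysosome. Ptx3, which the label names and the rule did not use, encodes a pentraxin, a secreted pattern-recognition protein induced by inflammatory cytokines. In GRCm38, Tfpi2 lies at chr6:3962595-3988919 and Cyp26b1 at chr6:84571414-84593908, both on the minus strand. Scg3 lies on the minus strand at chr9:75643189-75684056, Mcoln2 on the plus strand at chr3:146149833-146195513 and Ptx3 on the plus strand at chr3:66219910-66225805.

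Total UMIs per library ran from 52068837 to 88508349. The gated cells had median depths of 8788 to 11539 UMIs in young and 7608 to 7991 in aged libraries. This was 1.09 to 1.21 times that of the other ASPCs of the same library. In the aged 14D library 38.2% of barcodes had under 2000 UMIs, and it gave the fewest gated cells, 480, against 743 to 947 in the other 5 libraries. Pairs of libraries shared 30 to 44 barcode sequences, and 4 of the shared barcodes were of gated cells. Of 10 endothelial markers, Pecam1 and Cdh5 were at 0 by the rule and the list summed to 0.856 to 1.14 UMIs per 10000 in young and 0.706 to 0.773 in aged libraries. Of 10 immune markers, Ptprc and Cd3e were at 0 and the list summed to 0.0348 to 0.372 UMIs per 10000. All 10 smooth muscle and pericyte markers were found, at 2.42 to 4.81 UMIs per 10000, as were 9 of 10 mature adipocyte markers, without Lep, at 0.547 to 1.08. The part of such RNA in the results below was not tested.

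Most gated cells were admitted by 1 gene. Tfpi2 was present in 62.9% of them and Cyp26b1 in 41.9%. Tfpi2 alone was found in 1410 cells, Cyp26b1 alone in 959, Scg3 alone in 301 and Mcoln2 alone in 145, while 41.1% held 2 or more of the genes and 13 cells held all 4. The gate is therefore a union of cells with different genes. Its make-up also differed between libraries. Tfpi2 was detected in 74.2%, 72.2% and 52.0% of the gated cells of young mice at TN, 3D and 14D and in 59.8%, 64.3% and 49.2% of those of aged mice. Cyp26b1 was detected in 23.02%, 34.2% and 58.5% in young mice and in 49.8%, 38.9% and 49.2% in aged mice. The young TN library thus held the fewest cells with Cyp26b1, and both 14D libraries held the fewest with Tfpi2. Scg3 ranged from 16.6% in the aged 3D to 38.2% in the young TN library, and Mcoln2 from 10.4% in the young 14D to 20.4% in the aged 3D library. No UMI of Pi16 was found in 528 of 743, 704 of 947 and 490 of 850 gated cells of young mice at TN, 3D and 14D. In aged mice it was absent from 758 of 843, 740 of 915 and 370 of 480. The share without Pi16 was higher in each aged library than in any young one.

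**Figure D1:**
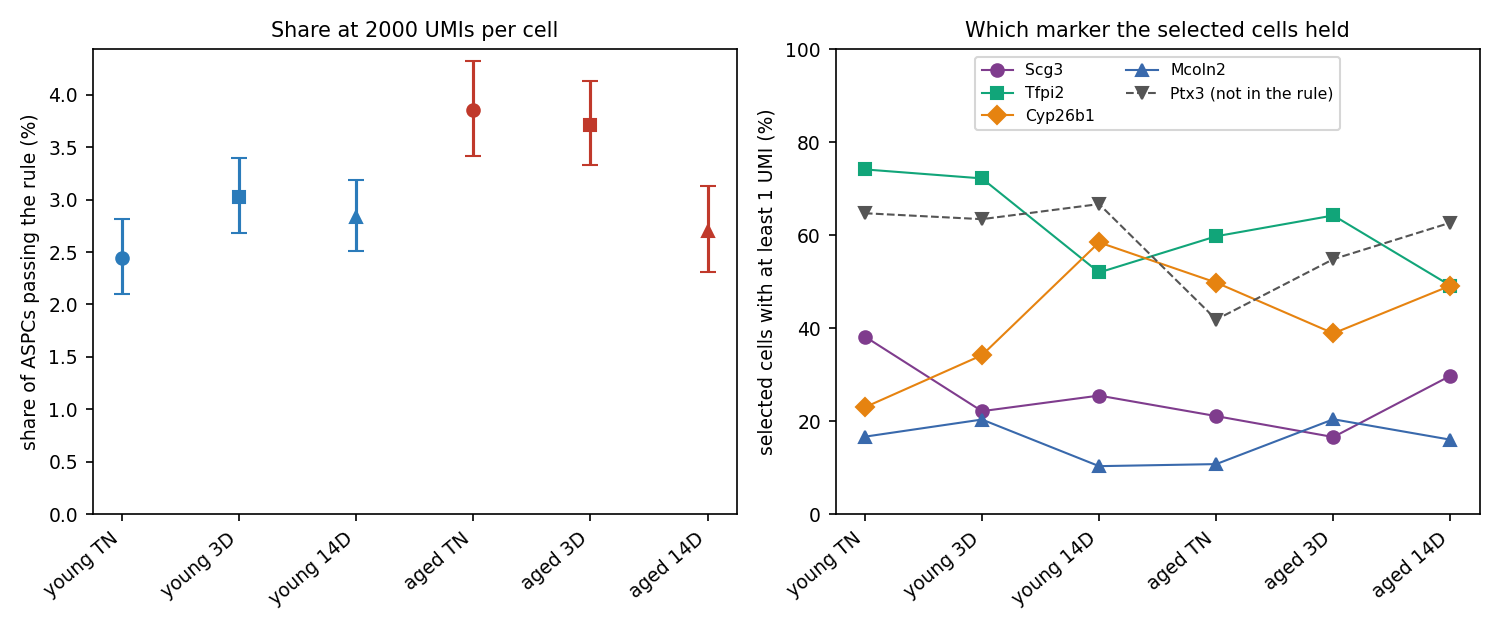
Left, percentage of ASPCs that passed the gate after each cell was thinned to 2000 UMIs, per library, with exact 95% binomial intervals; right, percentage of the gated cells of each library with at least 1 UMI of Tfpi2, Scg3, Cyp26b1, Mcoln2 and Ptx3. The shares of ASPCs lie between 2.44% and 3.85%, and Cyp26b1 is found in 23.02% of the gated cells of the young TN library against 58.5% of the young 14D library.

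The 4 genes were seldom found together. Among 21137 ASPCs with the same limits on Pi16, Fmo2 and Cyp2f2 but any number of UMIs of the 4 genes (Pi16-low ASPCs), thinned to 2000 UMIs, the share of cells with both Tfpi2 and Cyp26b1 was 0.988 times (median of 6 libraries; range 0.898 to 1.69) the product of the 2 single shares, over 134 cells. The same ratio was 1.01 (0.949 to 1.24) for Scg3 with Tfpi2 over 69 cells, and 0.881 (0 to 1.13) for Cyp26b1 with Mcoln2 over 19 cells. These ratios lie near 1, the value for genes found independently of each other. Tfpi2 with Mcoln2 had a median ratio of 1.80 (0.998 to 2.23) over 64 cells. Ptx3 was found with Tfpi2 at 1.29 (1.18 to 1.67) and with Mcoln2 at 1.54 (1.197 to 1.83) times the product, but with Cyp26b1 at 0.923 (0.622 to 1.08). Ptx3 thus went with Tfpi2 and Mcoln2 in all 6 libraries, and its ratio with Cyp26b1 lay on both sides of 1. The ratios come from sparse counts of cells that share a library, and they are given as a description.

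Ptx3 was found in 64.7%, 63.5% and 66.7% of the gated cells of young mice at TN, 3D and 14D and in 41.9%, 54.9% and 62.7% of those of aged mice. In the other ASPCs it was found in 31.9% to 52.4%, and in endothelial barcodes in 1.71% to 7.19%. Endothelial barcodes were shallower, with median depths of 3428.5 to 4261 UMIs. The aged TN library had the lowest share in the gated cells and in the other ASPCs.

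The share of ASPCs in the gate did not differ between ages beyond the spread of the libraries. Each cell was thinned to 2000 UMIs, so that all were gated at 1 depth. The minimum of 2000 UMIs was applied before thinning and the other count limits after it, which loosens the limits on Pi16 and the excluded genes. In the young TN library 3736 ASPCs were Pi16-low after thinning, against 2687 before. The share after thinning was 2.44% (95% exact binomial interval 2.10 to 2.82), 3.02% (2.68 to 3.40) and 2.83% (2.51 to 3.19) in young mice at TN, 3D and 14D. In aged mice it was 3.85% (3.42 to 4.32), 3.71% (3.33 to 4.13) and 2.70% (2.31 to 3.13). These intervals cover counting error only. The young mean was 2.77% ± 0.298 (SD, n = 3) and the aged mean 3.42% ± 0.631 (n = 3), a difference of 0.655 percentage points with p = 0.3 in a two-sided exact permutation test, whose smallest possible p is 0.1. The aged TN and 3D libraries lay above the young libraries, and the aged 14D library lay among them. Without thinning the means were 10.1% and 10.2% (exact permutation p = 0.9). As a share of the Pi16-low ASPCs the aged mean was the lower, 5.22% against 5.46% (difference of -0.233 percentage points, exact permutation p = 0.7). Among thinned endothelial barcodes 0.277% to 0.673% had 2 or more UMIs of the 4 genes in 4 libraries, and 0 of 427 and 0 of 169 did in the aged 3D and 14D libraries, which allows shares of up to 0.703% and 1.78%.

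Against the other ASPCs of the same library, the gated cells had more RNA of preadipocyte genes and less of Dpp4+ fibroblast genes. Levels here are CPM (UMIs of a gene per 1000000 UMIs) of the cells summed per library, and a ratio is the median over libraries of log2 of (CPM + 1). Col4a1, a chain of basement membrane collagen IV, was at 3275, 3444 and 3155 CPM in the gated cells of young mice at TN, 3D and 14D and at 3375, 2511 and 3021 in those of aged mice. In the other ASPCs it was at 1445, 1629.5 and 1255 in young and 2139, 1321 and 1322 in aged mice. The gated cells were higher in every library, with a ratio of 1.13 (0.66 to 1.33). Of the 12 genes of a preadipocyte list with at least 50 CPM, 11 were higher in all 6 libraries, among them Col15a1 (1.02), the fatty acid carrier Cd36 (0.95) and the lipase Lpl (0.76), and Ebf2 was lower (-0.42). Over all 2965 genes with at least 50 CPM, 30.8% were higher and 35.8% lower in all 6 libraries. The 9 measured genes of a Dpp4+ fibroblast list were all lower, with a median ratio of -2.88, against -0.0074 over all genes. Dpp4 itself was at 27.0, 29.8 and 29.9 CPM in young and 22.2, 31.0 and 34.1 in aged gated cells, and at 305, 321 and 315 and 178, 268 and 282 in the other ASPCs. The limit on Pi16 in the rule removes the Dpp4+ cells, which stay among the other ASPCs. The difference in Dpp4+ fibroblast genes thus follows from the choice of cells, and that in preadipocyte genes is bound up with it. Against Pi16-low ASPCs with no UMI of the 4 genes, 0 of 13 preadipocyte genes were higher in all 6 libraries and 6 were lower.

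The genes that stood highest in the gated cells over the other ASPCs were Cxcl9 (1.50), a chemokine induced by interferon gamma, S1pr3 (1.19), a receptor of sphingosine 1-phosphate, Nrep (1.19), Noct (1.18) and the aggrecan-cleaving protease Adamts4 (1.14). Cxcl9 was at 120.1, 177 and 112 CPM in the gated cells of young mice at TN, 3D and 14D and at 38.0, 170.3 and 107 in those of aged mice, against 34.5, 61.1 and 47.6 and 15.0, 31.0 and 37.5 in the other ASPCs. Ptx3 was at 635, 737 and 717 CPM in young and 389.8, 756 and 826 in aged gated cells, against 321, 344 and 375 and 219.7, 372 and 358, a ratio of 1.00. Both genes were higher in the gated cells of all 6 libraries, and both had their lowest value in the aged TN library. Of 20 genes of inflammatory secreted proteins, 13 were higher in all 6 libraries and 2, C3 and Csf1, were lower. Of 14 basement membrane genes, 10 were higher and 1, Lamb2, was lower. Lower genes were led by Pi16 itself and by Dmkn (-5.73), Sbsn (-5.31) and Akr1c18 (-5.24).

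Col15a1+ preadipocytes were compared next. They are 8720 ASPCs with the same limits, none of the 4 gate genes, and at least 2 UMIs of Col15a1 and Lamc3 in sum. Set beside them, the gated cells had lower levels of lipid and preadipocyte genes and higher levels of inflammatory genes. Fabp4, a fatty acid binding protein of adipose cells, was at 685, 1565 and 996 CPM in the gated cells of young mice at TN, 3D and 14D and at 776, 2208 and 2109.9 in those of aged mice, against 899, 2309 and 2269.7 and 1178, 3630.3 and 3699.9 in the Col15a1+ preadipocytes. Of 14 preadipocyte genes, 11 were lower in all 6 libraries, with a median ratio of -0.34, against 0.0046 over all genes, and 1, Ebf2, was higher. Of these, Col15a1 and Lamc3 were used to choose the compared cells, a minimum that the gated cells did not have. Against Pi16-low ASPCs with no UMI of the 4 genes, 6 of 13 preadipocyte genes were lower in all 6 libraries. The 13 genes had a median ratio of -0.09, and Pparg was not among the 6. Against Col15a1+ preadipocytes the lower genes also held Plin2 (-0.72), which coats lipid droplets, and Pparg (-0.35), the main regulator of adipogenesis. Cox8b (-1.01), a mitochondrial subunit found in beige and brown fat, and Txnip (-1.01) were lower as well. Of 15 basement membrane genes 8 were lower in all 6 libraries, Col4a1 and Col4a2 among them, and 2, Lamb2 and Nid1, were higher. Relative to Pi16-low ASPCs with no UMI of the 4 genes, 6 of the 15 were higher and 2, Lamc3 and Col15a1, lower. Over all 2826 genes measured against Col15a1+ preadipocytes, 21.9% were higher and 18.8% lower in all 6 libraries.

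Fn1, which encodes the matrix protein fibronectin, led the genes that were higher than in Col15a1+ preadipocytes, at 849, 448 and 634 CPM in young and 531, 401 and 634 in aged gated cells against 348, 160.2 and 269 and 187, 75.8 and 199 (1.49). The cytokine Il6 was at 244, 241 and 209.8 CPM in young and 279.7, 403 and 355 in aged gated cells, against 125, 93.2 and 112 and 107, 119.6 and 139.6 in Col15a1+ preadipocytes (1.35). Neither gene overlapped between the populations. Has1 (1.42), which makes hyaluronan, Ptgs2 (1.32), the inducible cyclooxygenase, the protein C receptor Procr (1.24) and the chemokine Cxcl13 (1.15) were also higher in all 6 libraries. Of 19 inflammatory secreted genes, 13 were higher, among them Ccl2 (0.97), Ccl7 (0.81) and Ptx3 (0.74), and Vcam1 and Icam1 were lower. Cxcl9 was not among the 13. It was higher in all 6 libraries than in Pi16-low ASPCs with no UMI of the 4 genes (0.61). The 3 measured genes of the Dpp4+ fibroblast list, Anxa3 (1.37), Ly6c1 (0.70) and Cd55 (0.63), were higher. Beside Pi16-low ASPCs with no UMI of the 4 genes, 0 of 4 measured genes of this list were higher in all 6 libraries and 0 were lower. Their median ratio there was -0.04. Of 26 fibrillar matrix genes 7 were higher and 9 lower, and of 12 BMP, TGF beta and Wnt genes 7 were higher, led by Dkk2 (0.64), and 0 lower. Of 11 protease and clotting genes, the group of Tfpi2, 7 were higher, among them Serpine2 (0.85) and the thrombomodulin gene Thbd (0.79), and 2 lower. Relative to the other ASPCs, Fn1, Procr, Serpine2 and Thbd were lower in the gated cells of all 6 libraries. Procr, Serpine2 and Thbd were higher in all 6 than in Pi16-low ASPCs with no UMI of the 4 genes, and Fn1 was not. Of 16 early genes that tissue digestion is known to induce, 9 were lower, with Jun at -0.53, and their part in the other differences was not tested.

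**Figure D2:**
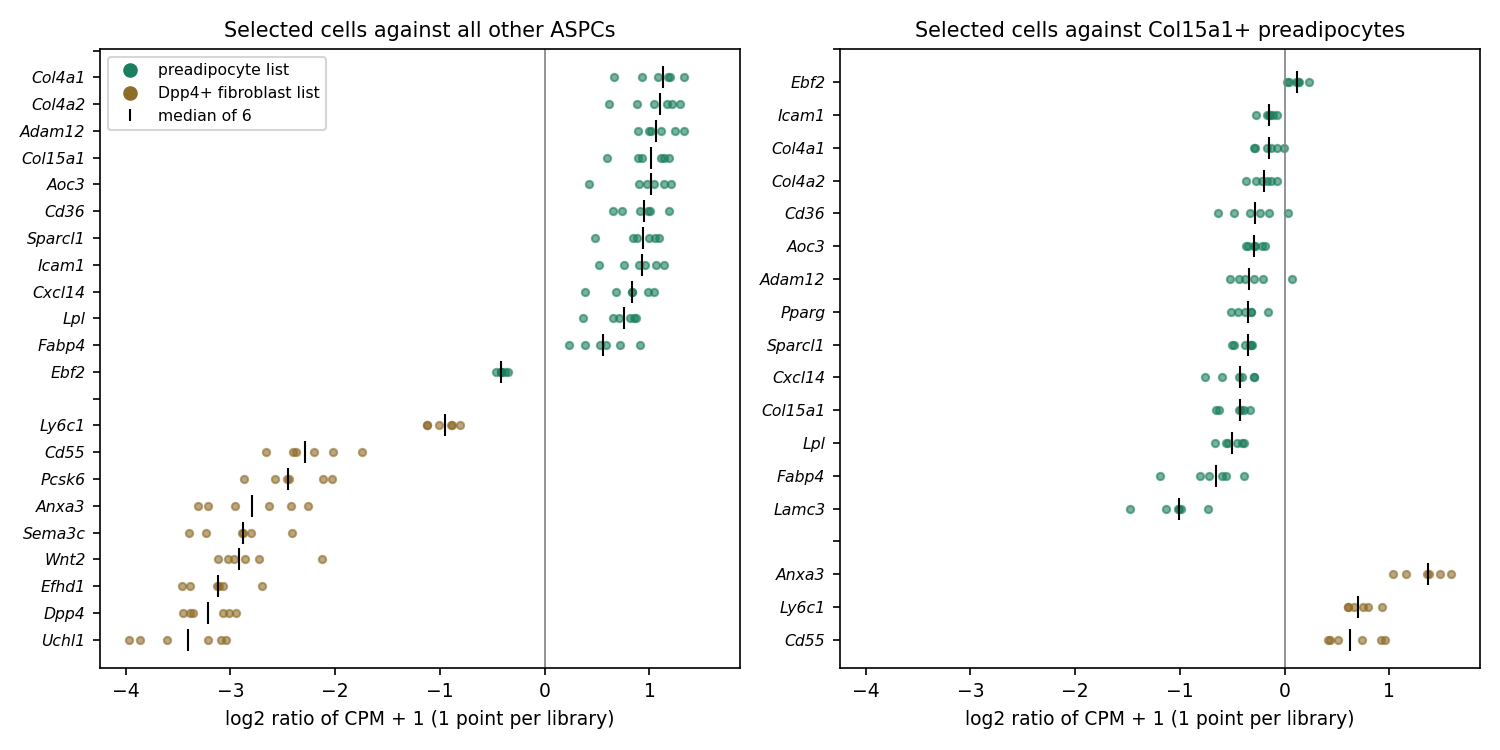
Log2 ratio of CPM + 1 in the gated cells over the other ASPCs and over Col15a1+ preadipocytes, with 1 point per library, for the measured genes of the preadipocyte and Dpp4+ fibroblast lists. Preadipocyte genes such as Col4a1 lie above 0 against the other ASPCs and mostly below 0 against Col15a1+ preadipocytes, and the Dpp4+ fibroblast genes do the reverse.

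Within the gate, the cells with Tfpi2 alone and those with Cyp26b1 alone differed in interferon and inflammatory genes. There were 99 to 334 cells with Tfpi2 alone and 60 to 248 with Cyp26b1 alone per library. Ifit1, an interferon-induced protein that binds viral RNA, was at 94.997, 165 and 228 CPM in the cells with Tfpi2 alone of young mice at TN, 3D and 14D and at 46.3, 236 and 264 in those of aged mice, against 17.4, 16.98 and 72.6 and 10.8, 26.1 and 29.7 in the cells with Cyp26b1 alone (2.75). Cxcl9 was at 167, 310.3 and 202 and 49.8, 179.9 and 116 CPM against 30.1, 57.5 and 99.8 and 21.6, 11.4 and 30.8 (2.15), and Ptx3 at 656, 748 and 1043 and 597, 915 and 1052 against 244, 444 and 399.8 and 155, 317 and 545 (1.40). In each library all 3 genes were higher in the cells with Tfpi2 alone. Further interferon-induced genes followed, Trim25 (1.13), Rtp4 (1.13), Ifi203 (1.02) and Iigp1 (0.94). Of 2839 genes with at least 50 CPM, 6.94% were higher and 6.59% lower in all 6 libraries. Of 14 interferon and antigen presentation genes 9 were higher and 0 lower, and of 19 inflammatory secreted genes 10 were higher, Il6 (0.94) and Ccl8 (0.98) among them, and 0 lower. Col15a1 had no one direction (-0.07), and of 12 preadipocyte genes 2, Cd36 and Lpl, were higher and 0 lower.

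The cells with Cyp26b1 alone had the higher levels of Txnip, at 723, 408 and 614 CPM in young and 937, 657 and 408 in aged mice against 506, 260.3 and 312 and 572, 238 and 207 (-0.84), and of Wisp2 (-0.86), a matrix-associated Wnt target, and Klf2 (-0.59). Of 16 early genes of tissue digestion 9 were higher in the cells with Cyp26b1 alone, among them Hspa1a (-0.59), Jun (-0.53) and Atf3 (-0.53), and 1, Socs3, was higher in those with Tfpi2 alone (0.30). These genes moved with the difference between the cells, and their part in it was not tested. Since the rule and the split both use these cells' own counts, the ratios are descriptions.

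Cells just inside and just outside the threshold were close to each other. The 1845 gated cells with exactly 2 UMIs of the 4 genes were set beside the 4260 Pi16-low ASPCs with 1 UMI. Ccl8 had the highest ratio, with 51.9, 108 and 98.4 CPM in the cells with 2 UMIs of young mice at TN, 3D and 14D and 60.4, 154 and 117 in those of aged mice, against 51.0, 91.9 and 68.3 and 49.2, 107 and 81.4 in cells with 1 UMI (0.40). The laminin chain Lamc3 had the lowest ratio (-0.44), and Il6 (0.25) and Txnip (-0.28) lay between. Against the 12099 Pi16-low ASPCs with no UMI of the 4 genes, the ratios of all gated cells were 0.78 for Il6, 0.68 for Ptx3 and -0.79 for Lamc3. These compared cells were shallower than the gated cells in every library. Their median depth was 9780 against 11539 UMIs in the young TN and 5468.5 against 7960.5 in the aged 14D library. The part of depth in the ratios was not tested. Over all 2803 genes with at least 50 CPM, 15.1% were higher and 11.9% lower in all 6 libraries. Of 19 inflammatory secreted genes 12 were higher in all 6 libraries and 0 lower, with a median ratio of 0.25, against 0.0040 over all genes. Of 13 preadipocyte genes 6 were lower, Fabp4 and Lpl among them, and 0 higher, with a median of -0.09. Of the 16 early genes of tissue digestion 10 were lower and 0 higher, and their part in the other ratios was not tested.

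Age changed the expression of 909 of 11270 genes in the gated cells (edgeR quasi-likelihood test on UMIs summed per library, temperature as a term, adjusted p under 0.05), 544 of them higher (4.83%) and 365 lower (3.24%) in aged mice. For 906 of them the aged library was on the same side at all 3 temperatures, and 2529 genes had an unadjusted p under 0.05. Among genes with a mean of at least 20 CPM the melanosome gene Mlana had the largest rise, from 14.7, 26.9 and 18.7 CPM (here scaled by TMM factors) in young mice at TN, 3D and 14D to 69.5, 112 and 114 in aged mice, a log2 fold change of 2.28 ± 0.105 (SE; edgeR adjusted p = 2.71e-07). Cdkn1c, an imprinted gene that encodes the cell cycle inhibitor p57, rose from 24.2, 23.6 and 15.7 to 55.6, 61.4 and 66.8 CPM, a change of 1.52 ± 0.135 (SE; edgeR adjusted p = 2.98e-05). The lowest aged value of each gene lay above the highest young value. Apod, a lipid-binding lipocalin, rose from 509, 285 and 277 to 1444, 751 and 672 CPM (1.39). Myoc (1.72), the extracellular protein gene Hmcn2 (1.64), the tubulin gene Tuba4a (1.45), the orphan nuclear receptor gene Nr4a2 (1.41), the tetraspanin gene Cd9 (1.34), Tifa (1.33), an adaptor of NF-kB signalling, and Ndrg1 (1.33) rose as well. In DESeq2 349 genes passed, and with equal numbers of cells thinned to 2000 UMIs 239 did. Without the temperature term 160 genes passed. Among gated cells with no UMI of Pi16, whose share differed between ages, 740 genes passed.

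At the same minimum of 20 CPM Meg3, a maternally expressed noncoding RNA, had the largest fall, from 921, 751 and 807 CPM in young mice at TN, 3D and 14D to 233, 164 and 136 in aged mice, a log2 fold change of -2.24 ± 0.105 (SE; edgeR adjusted p = 2.71e-07). Ptgis, the enzyme that makes prostacyclin, fell from 42.8, 41.6 and 42.7 to 7.80, 14.2 and 14.0 CPM, a change of -1.85 ± 0.150 (SE; edgeR adjusted p = 1.81e-05). The young values of both genes lay above all aged values. Itm2a (-2.01), the matricellular protein gene Postn (-1.77), Hsd11b2 (-1.45), whose enzyme inactivates glucocorticoids, the imprinted transcription factor gene Plagl1 (-1.42), the inhibitory G protein subunit gene Gnai1 (-1.37), Spon1 (-1.33), the interferon-induced gene Ifi27l2a (-1.29) and the glypican gene Gpc3 (-1.28) fell as well. Of a list of 8 genes taken from the text of the study, 4 rose (Cd9, Pltp, Gpnmb and Lgals3) and 4 fell (Meg3, Itm2a, Postn and Gpc3), and 7 of the 8 passed in DESeq2. Lgals3 is discussed there as a marker of a regulatory cell type and not for the change of ASPCs with age. The study chose the others on these samples, so they are not independent evidence of the direction.

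**Figure D3:**
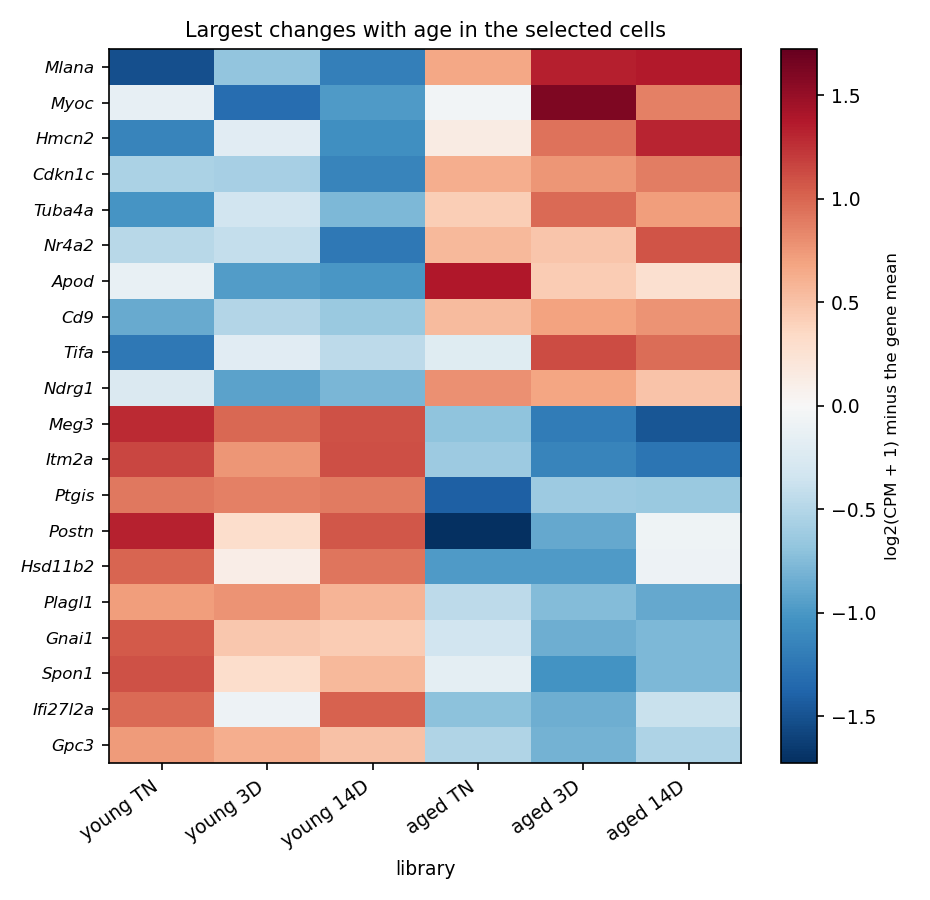
Heat map of log2 CPM in the gated cells of each library, centred per gene, for the 10 genes that rose most and the 10 that fell most with age at a mean of 20 CPM or more. The 3 aged libraries stand apart from the 3 young ones in each row except that of Tifa, where the aged TN and the young 3D library overlap.

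Of 18 genes of insulin-like growth factor signalling and imprinted growth genes, 7 fell with age, 2 rose and 9 did not pass, with a median of -0.28, against -0.0063 over all genes. Igf1, the growth factor itself, fell from 556, 224 and 463 CPM in young mice at TN, 3D and 14D to 231, 97.1 and 184 in aged mice (-1.27 ± 0.0736, SE, edgeR adjusted p = 1.05e-06). The aged value was lower at each temperature, while the young 3D library lay at the level of the aged TN library. The imprinted genes Mest (-1.98), Nnat (-1.94), Plagl1 (-1.42) and Peg3 (-1.19) fell, as did the binding protein gene Igfbp4 (-0.51). The receptor gene Igf1r rose by 0.45. Of 22 FGF, PDGF and VEGF genes, 5 fell and 0 rose, with Pdgfrl (-1.69), Fgf18 (-1.14) and the preadipocyte growth factor Fgf10 (-0.96) leading.

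Several fibrillar collagen genes fell with age. Of 27 fibrillar matrix genes 9 fell and 3 rose (median -0.24), leaving out the call of Dcn, which had a minimum in the rule. Col1a1 was at 6390.4, 4642 and 6664 CPM in young mice at TN, 3D and 14D and at 3690.3, 2332 and 4316 in aged mice, a log2 fold change of -0.80 ± 0.105 (SE; edgeR adjusted p = 5.55e-04). Col3a1 (-0.69), Col1a2 (-0.63), Col14a1 (-0.54) and Col5a1 (-0.48) also fell. The genes that rose were Timp3 (0.84), an inhibitor of matrix proteases, the collagen-crosslinking oxidase Lox (0.52) and Thbs2 (0.44). Of 19 basement membrane genes 5 fell and 0 rose, Col4a5 (-0.65), Col15a1 (-0.58), Sparc (-0.51), Lamb1 (-0.42) and Lama4 (-0.32). Of 28 BMP, TGF beta and Wnt genes 6 rose, with Inhba at 1.46, Tgfbi at 1.00 and Tgfb2 at 0.60, and 3 fell, Wnt5a (-0.83) and the Wnt antagonists Dkk2 (-0.74) and Sfrp2 (-0.73).

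Some cytokine and chemokine genes rose with age. Of 23 inflammatory secreted genes 7 rose and 2 fell (median 0.12). Il6 was at 245, 237 and 209.6 CPM in young mice at TN, 3D and 14D and at 279, 409.9 and 359.6 in aged mice, a log2 fold change of 0.59 ± 0.108 (SE; edgeR adjusted p = 0.00508). Cxcl1, a chemokine that attracts neutrophils, rose from 1622, 1706 and 1599 to 1985, 3057 and 2373 CPM (0.57 ± 0.107, SE, edgeR adjusted p = 0.00600). The groups did not overlap for Il6 or Cxcl1. Cxcl2 (0.79), Ccl2 (0.58), Icam1 (0.42), Ccl11 (0.37) and Cxcl12 (0.29) rose, and Cxcl10 (-0.49) and Vcam1 (-0.42) fell. Of 20 interferon and antigen presentation genes 0 rose and 2 fell, Ifi27l2a (-1.29) and Ifit3 (-0.60). Ptx3 was at 636, 724 and 716 CPM in young and 388, 769 and 837 in aged mice and did not pass the test (-0.13 ± 0.141, SE, edgeR adjusted p = 0.651). The shares of gated cells with Tfpi2 and with Cyp26b1, given above, also differed between libraries, and their part in these changes was not tested.

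The promoters of Il6, Cxcl1 and Cxcl2 are shown because all 3 genes rose with age and each holds the letters GGGANTTTCC, a site of the transcription factor NF-kB, on either strand. The sequences run from 250 bases before to 50 bases after the gene's start (RefSeq, GRCm38.p6, plus strand, chr5:30012864-30013163, chr5:90890995-90891294 and chr5:90903649-90903948), and capitals mark the match.
Il6: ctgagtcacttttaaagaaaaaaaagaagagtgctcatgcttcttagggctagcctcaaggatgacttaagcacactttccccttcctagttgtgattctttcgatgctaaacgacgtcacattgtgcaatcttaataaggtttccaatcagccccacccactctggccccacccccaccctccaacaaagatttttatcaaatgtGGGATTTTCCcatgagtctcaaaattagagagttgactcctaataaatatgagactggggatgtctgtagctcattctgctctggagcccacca
Cxcl1: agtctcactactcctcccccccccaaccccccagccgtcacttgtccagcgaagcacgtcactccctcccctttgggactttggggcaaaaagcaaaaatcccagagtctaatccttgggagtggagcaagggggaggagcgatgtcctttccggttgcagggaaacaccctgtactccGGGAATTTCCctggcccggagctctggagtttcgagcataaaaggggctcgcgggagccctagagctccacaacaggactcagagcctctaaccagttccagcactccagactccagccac
Cxcl2: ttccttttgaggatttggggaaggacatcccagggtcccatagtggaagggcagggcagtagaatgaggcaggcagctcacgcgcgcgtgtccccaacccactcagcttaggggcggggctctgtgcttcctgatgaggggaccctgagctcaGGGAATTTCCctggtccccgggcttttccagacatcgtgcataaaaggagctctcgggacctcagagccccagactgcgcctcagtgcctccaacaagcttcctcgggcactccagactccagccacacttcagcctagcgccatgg
Of the inflammatory secreted genes 20 had a RefSeq promoter, and 5 of these (25%) held the letters, Csf1, Cxcl1, Cxcl2, Il6 and Nfkbia, against 0.466% of all 27025 genes with a promoter. Icam1 and Cxcl12 rose with age and their promoters held no match, while Csf1 and Nfkbia were not among the genes that rose. A match is a description of the sequence and not a bound site.

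Of 14 protease and clotting genes, the group that Tfpi2 belongs to, 5 rose with age, 0 fell and 9 did not pass (median 0.12), and 4 passed in DESeq2. F2r, the thrombin receptor PAR1, rose from 5.76, 4.17 and 4.87 CPM in young mice at TN, 3D and 14D to 24.7, 22.6 and 19.02 in aged mice, a log2 fold change of 2.18 ± 0.152 (SE; edgeR adjusted p = 4.75e-06). The young libraries lay within 2 CPM of each other, and every aged library was higher. The protease inhibitor gene Serpine2 (0.74), the urokinase gene Plau (0.69), its receptor gene Plaur (0.60) and Procr (0.49) rose as well. Of 15 retinoid genes 0 passed in edgeR or DESeq2, with 5 at an unadjusted p under 0.05. Of 20 endolysosomal genes Ctsk (0.46) and Mitf (0.33) rose, and of 6 secretory granule genes Cpe (0.51) rose and Sytl2 (-0.96) and Pcsk5 (-0.55) fell, of which 1 passed in DESeq2.

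Of 22 adipogenic genes 4 rose and 1 fell with age (median 0.05), with 11 at an unadjusted p under 0.05 and 3 past the threshold in DESeq2. Over all genes, as above, 4.83% rose and 3.24% fell. Plin2 rose from 238, 285 and 271 CPM in young mice at TN, 3D and 14D to 364, 428 and 450.4 in aged mice (0.64 ± 0.0733, SE, edgeR adjusted p = 1.90e-04). Fabp4 (0.61), the adipogenic transcription factor gene Cebpb (0.51) and Sox9 (0.32) rose, and Lpl fell (-0.35). The count does not set genes that promote adipogenesis apart from genes that restrain it. Of 15 preadipocyte markers 3 rose (Sparcl1, Fabp4 and Icam1) and 4 fell (Adam12, Col15a1, Aoc3 and Lpl), and of 10 Dpp4+ fibroblast markers 0 passed in edgeR or DESeq2, with 1 at an unadjusted p under 0.05. The cofactor gene Ppargc1a (1.27) and Cox8b (0.73) rose among 6 thermogenic genes, Ppargc1a at no more than 7.36 CPM in any library. Of 13 senescence genes Plaur, Cdkn2c (0.60) and Cdkn1a (0.45) rose and Glb1 fell (-0.41), and 1 of these, Cdkn1a, passed in DESeq2. Of 12 cell cycle genes 1 passed, Ccnd1, which fell (-1.32). Of 16 early genes of tissue digestion 3 rose, Hspa1a (0.81), Nr4a1 (0.71) and Ier3 (0.58), beside the age calls given above.

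Some markers of other cell types moved with age. The endothelial gene Plvap fell (-0.93), from 42.7, 72.2 and 72.3 CPM in young mice at TN, 3D and 14D to 30.5, 33.3 and 31.7 in aged mice, as 1 of 5 endothelial markers tested. The pericyte gene Rgs5 rose (0.98), as 1 of 10 smooth muscle and pericyte markers. The Schwann cell gene Cdh19 rose (0.72) among 3 tested, the adipocyte gene Cfd rose (2.82) among 4, at no more than 12.2 CPM in any library, and 0 of 2 immune markers passed in edgeR or DESeq2, with 1 at an unadjusted p under 0.05. Their part in the age calls was not tested.

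Temperature changed 504 of 11520 genes in the gated cells (4.38%; edgeR test of the 3D and 14D terms together, age as a term, adjusted p under 0.05). Of these 186 (1.61%) were higher than at TN at both times in cold, 225 (1.95%) lower at both, and 93 had opposite signs. Igfbp3, which binds insulin-like growth factors, had the largest rise among genes with at least 20 CPM, from 39.6 CPM at TN to 192 at 3D and 87.6 at 14D in young mice and from 36.3 to 142 and 123 in aged mice. Its log2 fold changes were 2.13 after 3 days and 1.45 after 14 days (edgeR adjusted p = 3.89e-04). The related Igfbp5 rose by 0.98 and 1.44 at 3D and 14D, Fabp4 by 1.33 and 1.01, Cd36 by 1.33 and 1.65 and Tifa by 1.27 and 1.06. Without the aged TN library 260 genes passed, and without the aged 14D library 953 did. Without the age term 0 genes passed in edgeR, and 752 had p under 0.05 before adjustment. DESeq2, with the age term, gave 215.

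Lsmem1 had the largest fall in cold at this minimum, from 55.4 CPM at TN to 19.6 at 3D and 12.8 at 14D in young mice and from 52.3 to 15.6 and 20.6 in aged mice (-1.61 and -1.77; edgeR adjusted p = 4.37e-04). Both TN libraries lay above all 4 cold libraries. Gm26802 (-1.16 and -1.02), the potassium channel subunit gene Kcne4 (-1.01 and -1.10), the glutamate receptor gene Gria3 (-1.25 and -0.70), the estrogen sulfotransferase gene Sult1e1 (-1.21 and -0.69) and Apod (-0.90 and -0.99) fell at both times. Igf1 changed by -1.29 and -0.29 (edgeR adjusted p = 1.53e-04), the larger change at 3D. Of 28 fibrillar matrix genes 11 passed, of which 6 were lower at both times, 1, Timp3, rose and 4, Thbs1, Fbn1, Col1a1 and Col14a1, had opposite signs at 3D and 14D. Col3a1 was at 21479, 13418 and 20863 CPM in young and 13956, 7425 and 13898 in aged mice at TN, 3D and 14D, with changes of -0.80 and -0.02 (edgeR adjusted p = 0.0111). Sparc (-0.76 and -0.02) and Fn1 (-0.68 and -0.09) had the same pattern. The difference between 3D and 14D was not tested by itself.

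Interferon-induced genes, in edgeR alone, and chemokine genes were higher in cold. Of 20 interferon and antigen presentation genes 4 rose and 0 fell, and of 23 inflammatory secreted genes 6 rose and 0 fell, with medians of 0.22 and 0.23 (the mean of the 3D and 14D changes), against -0.0063 over all genes. Ifit1 was at 89.9, 135 and 119 CPM in young mice at TN, 3D and 14D and at 29.9, 166 and 123 in aged mice, with changes of 1.37 after 3 days and 1.04 after 14 days (edgeR adjusted p = 0.0419). The aged TN library was the lowest and the young TN library was nearer to the cold libraries. Ifit3 (1.03 and 0.36), the interferon regulatory factor gene Irf7 (0.56 and 0.23) and the peptide transporter gene Tap1 (0.58 and 0.09) also rose. Cxcl9 was at 120.2, 174 and 112 CPM in young and 37.9, 173 and 108 in aged mice (1.23 and 0.55; edgeR adjusted p = 0.0498), again with the aged TN library at the bottom and with the young 14D library at the level of the young TN library. Ccl8 (0.90 and 0.49), Ccl2 (0.87 and 0.49), Cxcl2 (0.74 and 0.51), Ccl7 (0.81 and 0.35) and Tnfaip6 (0.55 and 0.41) rose. In DESeq2 the adjusted p was 0.923 for Ifit1, 0.975 for Cxcl9 and 0.561 for Ifit3, so these calls were lost in DESeq2, where 0 of the 20 interferon genes passed against 5 in edgeR. Of the inflammatory genes 6 passed in DESeq2, which gave no adjusted p for 3, against 8 in edgeR. Without the aged TN library Irf7, Tap1, Cxcl2 and Tnfaip6 no longer passed. Among the gated cells with at least 1 UMI of Cyp26b1, Cxcl2 had a mean change of -0.51 in cold, and Cox8b, which rose in all gated cells, of -0.06. The shares of gated cells with Tfpi2 and with Cyp26b1 also differed between libraries. Cells with Tfpi2 alone held more RNA of Ifit1, Cxcl9 and Ccl8, as given above. The part of this make-up in the changes with temperature was not tested.

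The promoters of Ifit1 and Ifit3 are shown since both genes rose in cold, and Ifit1 had the highest ratio of cells with Tfpi2 alone over cells with Cyp26b1 alone, among genes with at least 50 CPM and higher in all 6 libraries, with the genes of the gate left out. Each holds 2 copies of GAAANNGAAA, the interferon-stimulated response element, searched on both strands and written in capitals (RefSeq, GRCm38.p6, plus strand, chr19:34640639-34640938 and chr19:34583279-34583578).
Ifit1: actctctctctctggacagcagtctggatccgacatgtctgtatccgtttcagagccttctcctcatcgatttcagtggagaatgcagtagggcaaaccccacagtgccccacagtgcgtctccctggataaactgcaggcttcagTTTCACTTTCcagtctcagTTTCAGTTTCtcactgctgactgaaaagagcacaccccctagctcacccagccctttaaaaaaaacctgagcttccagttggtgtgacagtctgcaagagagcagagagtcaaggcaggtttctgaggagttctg
Ifit3: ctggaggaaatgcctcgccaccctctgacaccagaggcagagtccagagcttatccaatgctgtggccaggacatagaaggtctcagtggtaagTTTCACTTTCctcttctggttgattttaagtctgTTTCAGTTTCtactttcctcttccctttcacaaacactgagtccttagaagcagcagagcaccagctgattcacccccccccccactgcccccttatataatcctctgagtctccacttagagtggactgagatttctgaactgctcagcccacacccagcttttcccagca
Of 17 interferon and antigen presentation genes with a RefSeq promoter 7 (41.2%) held the element, against 3.99% of 27025 genes with a promoter. The list was written as one of interferon genes, so this share is a description. Irf7 and Tap1 rose in cold and their promoters held no match. B2m, Bst2, H2-T23, Isg15 and Stat2 held the element and were not among the genes that rose. None of the promoters of Tfpi2, Scg3, Cyp26b1 and Mcoln2 held these letters or those of the NF-kB site, which says only that they are absent from the 300 bases searched.

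**Figure D4:**
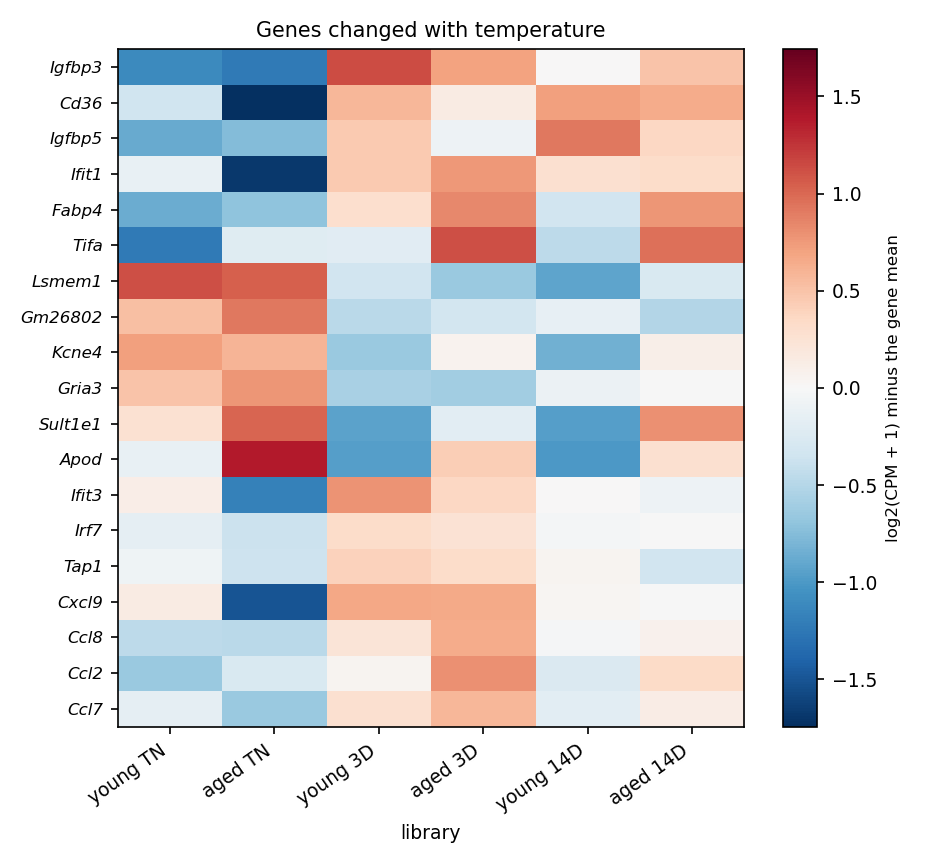
Heat map of log2 CPM in the gated cells of each library, centred per gene, for the 6 genes that rose most and the 6 that fell most in cold at 20 CPM or more and for interferon and chemokine genes that passed the test. Igfbp3 and Igfbp5 are lowest in both TN libraries, while for Ifit1 and Cxcl9 the aged TN library, at 29.9 and 37.9 CPM, stands below the young TN library.

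Other groups showed single changes with temperature. Of 22 adipogenic genes 3 rose, Cd36, Fabp4 and Zbtb16 (0.73 and 0.46), and 0 fell. Of 18 growth genes 2 rose (Igfbp3 and Igfbp5) and 4 fell, Mest (-1.42 and -0.75), Igf1, Igfbp4 (-0.53 and -0.24) and Ndn (-0.44 and -0.10). Of 19 basement membrane genes 3 fell, Col18a1 (-0.71 and -0.37), Nid2 (-0.51 and -0.32) and Sparc. The retinoid dehydrogenase gene Dhrs3 (-0.63 and -0.07) fell as 1 of 16 retinoid genes. Gdf15, a stress-induced hormone gene, rose by 1.26 and 1.06, as 1 of 14 senescence genes. Cox8b rose by 0.72 and 0.04, as 1 of 7 thermogenic genes. Of 16 early genes of tissue digestion 1 passed, Dusp1, with changes of -0.53 and -0.48. Of the immune markers Cd74 passed (1.26 and 3.24), with 15.9 CPM in the young 14D library and at most 2.64 in the others, and its part in the interferon changes was not tested. Of 4 adipocyte markers tested 2 rose, Cfd (1.61 and 1.73) and Pnpla2 (0.73 and 0.18), and 0 passed in DESeq2, which gave no adjusted p for Cfd. Of 10 smooth muscle and pericyte markers Notch3 rose (0.77 and 0.32) and Rgs5 passed with opposite signs (0.98 and -0.92), of which Rgs5 passed in DESeq2. Their part in the temperature calls was not tested.

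The genes of the gate were tested in all 21137 Pi16-low ASPCs, where the rule does not set their level, a choice made after the data were seen. Tfpi2 was at 74.6, 80.5 and 52.6 CPM in young mice at TN, 3D and 14D and at 61.3, 77.8 and 52.7 in aged mice, and it changed with temperature, by 0.22 at 3D and -0.36 at 14D (edgeR adjusted p = 0.0185). Both 14D libraries were lowest and both 3D libraries highest. Cyp26b1 was at 23.1, 39.3 and 73.8 CPM in young and 54.8, 50.9 and 58.4 in aged mice and did not pass for temperature (edgeR adjusted p = 0.171) or age (0.42 ± 0.231, SE, edgeR adjusted p = 0.261). In young mice the 14D library held the highest level and the TN library the lowest, while the aged libraries lay between 50.9 and 58.4 CPM, a difference that was not tested. Scg3 ranged from 14.4 to 29.0 CPM and Mcoln2 from 6.03 to 15.2, and neither passed for age (edgeR adjusted p = 0.418 and 0.816) or temperature (0.244 and 0.123). Tfpi2 and Ptx3 did not pass for age (0.359 and 0.240).

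The age effect of the gated cells was then compared with that of 3 other populations of the same libraries. Against Col15a1+ preadipocytes it differed past the threshold for 15 of 11926 genes (0.126%; edgeR test of the population by age term with library as a block), with 733 at an unadjusted p under 0.05. Cxcl13, a chemokine that attracts B cells, had an age effect of 0.19 ± 0.116 in the gated cells and -1.17 ± 0.146 in the Col15a1+ preadipocytes (SE), a difference of 1.33 ± 0.212 (edgeR adjusted p = 0.0100). In the gated cells it was at 169, 210.0 and 119 CPM in young mice at TN, 3D and 14D and at 168, 204 and 189 in aged mice, with the 3 aged values inside the range of the young ones. Its difference did not pass in DESeq2 (adjusted p = 0.148), without the young TN library or without the young 14D library. The membrane protein genes Tmem176a and Tmem176b, the lipoprotein gene Apoe and the complement gene C4b likewise fell in the Col15a1+ preadipocytes and did not pass in the gated cells, with differences of 1.12, 0.92, 0.67 and 0.67. Apod rose more in the gated cells (0.87) and Pla1a, a phospholipase gene, rose less (-0.50). Ccl2 had an age effect of 0.58 ± 0.0852 in the gated cells and 0.01 ± 0.0959 in the Col15a1+ preadipocytes (SE), a difference of 0.57 ± 0.0768 (edgeR adjusted p = 0.00190). Of 23 inflammatory secreted genes 3 differed, C4b, Ccl2 and Tnfaip6, all with the higher age effect in the gated cells. The haemoglobin genes Hba-a1, Hba-a2 and Hbb-bs also differed, and red cell markers reached at most 1.29 UMIs per 10000, in the aged 14D library. Without the aged TN library 38 genes differed.

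Against Pi16+ fibroblasts, the 20942 ASPCs with 3 or more UMIs of Pi16, at most 1 of Fmo2 and Cyp2f2 and at most 1 of the gate genes, the age effect differed for 167 of 12557 genes (1.33%), 118 with the higher age effect in the gated cells. Postn had an age effect of -1.77 ± 0.271 in the gated cells and -3.80 ± 0.0654 in the Pi16+ fibroblasts (SE), a difference of 2.04 ± 0.394 (edgeR adjusted p = 0.0269), and this difference did not pass in DESeq2 (adjusted p = 0.137). C7, a complement component, rose in the gated cells and fell in the Pi16+ fibroblasts, with 1.28 ± 0.120 in the gated cells and -0.61 ± 0.0689 in the Pi16+ fibroblasts (SE), a difference of 1.90 ± 0.110 (edgeR adjusted p = 9.98e-06). Lox rose in the gated cells and fell in the Pi16+ fibroblasts as well (1.28). Cdkn1c (1.48) and Apod (1.37) rose with age in the gated cells and did not pass in the Pi16+ fibroblasts. Of 28 fibrillar matrix genes 13 had the higher and 1, Mmp3, the lower age effect in the gated cells, where Col1a1 changed by -0.80 against -1.88. Of 20 basement membrane genes 6 had the higher and 0 the lower effect. Pltp, a phospholipid transfer protein gene, rose less in the gated cells (-1.73), as did Eya2 (-1.11) and Slco2a1 (-1.02), the latter a prostaglandin transporter gene. Ptgis fell more (-1.53), and Thy1, a fibroblast surface protein gene, fell in the gated cells and did not pass in the Pi16+ fibroblasts (-1.06). Without the aged 3D library 55 genes differed, without the aged 14D library 56, and without the young 14D library 95.

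Against Fmo2+ Cyp2f2+ fibroblasts, the 2268 ASPCs with 2 or more UMIs of Fmo2 and Cyp2f2 in sum, at most 2 of Pi16 and at most 1 of the gate genes, it differed for 85 of 10816 genes (0.786%). Timp1, an inhibitor of matrix proteases, had an age effect of 0.38 ± 0.142 in the gated cells and -1.04 ± 0.142 in the Fmo2+ Cyp2f2+ fibroblasts (SE), a difference of 1.48 ± 0.157 (edgeR adjusted p = 1.70e-05). Tifa rose in the gated cells and did not pass in the fibroblasts (1.31), and Agt, which encodes angiotensinogen, rose in the gated cells and fell in the fibroblasts (1.21). Il6 had an age effect of 0.59 ± 0.108 in the gated cells and -0.19 ± 0.155 in the Fmo2+ Cyp2f2+ fibroblasts (SE), a difference of 0.78 ± 0.116 (edgeR adjusted p = 9.90e-04). Ptgis fell in the gated cells and did not pass in the fibroblasts (-1.76). Ptgis was at 42.8, 41.6 and 42.7 CPM in young and 7.80, 14.2 and 14.0 in aged gated cells at TN, 3D and 14D. Plin2 (-0.57) and Fabp4 (-0.51) rose less in the gated cells. The counts fell to 44 without the aged 14D and to 50 without the young 14D library. The compared populations come from the same 6 libraries, and the 3 comparisons share the gated cells.

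**Figure D5:**
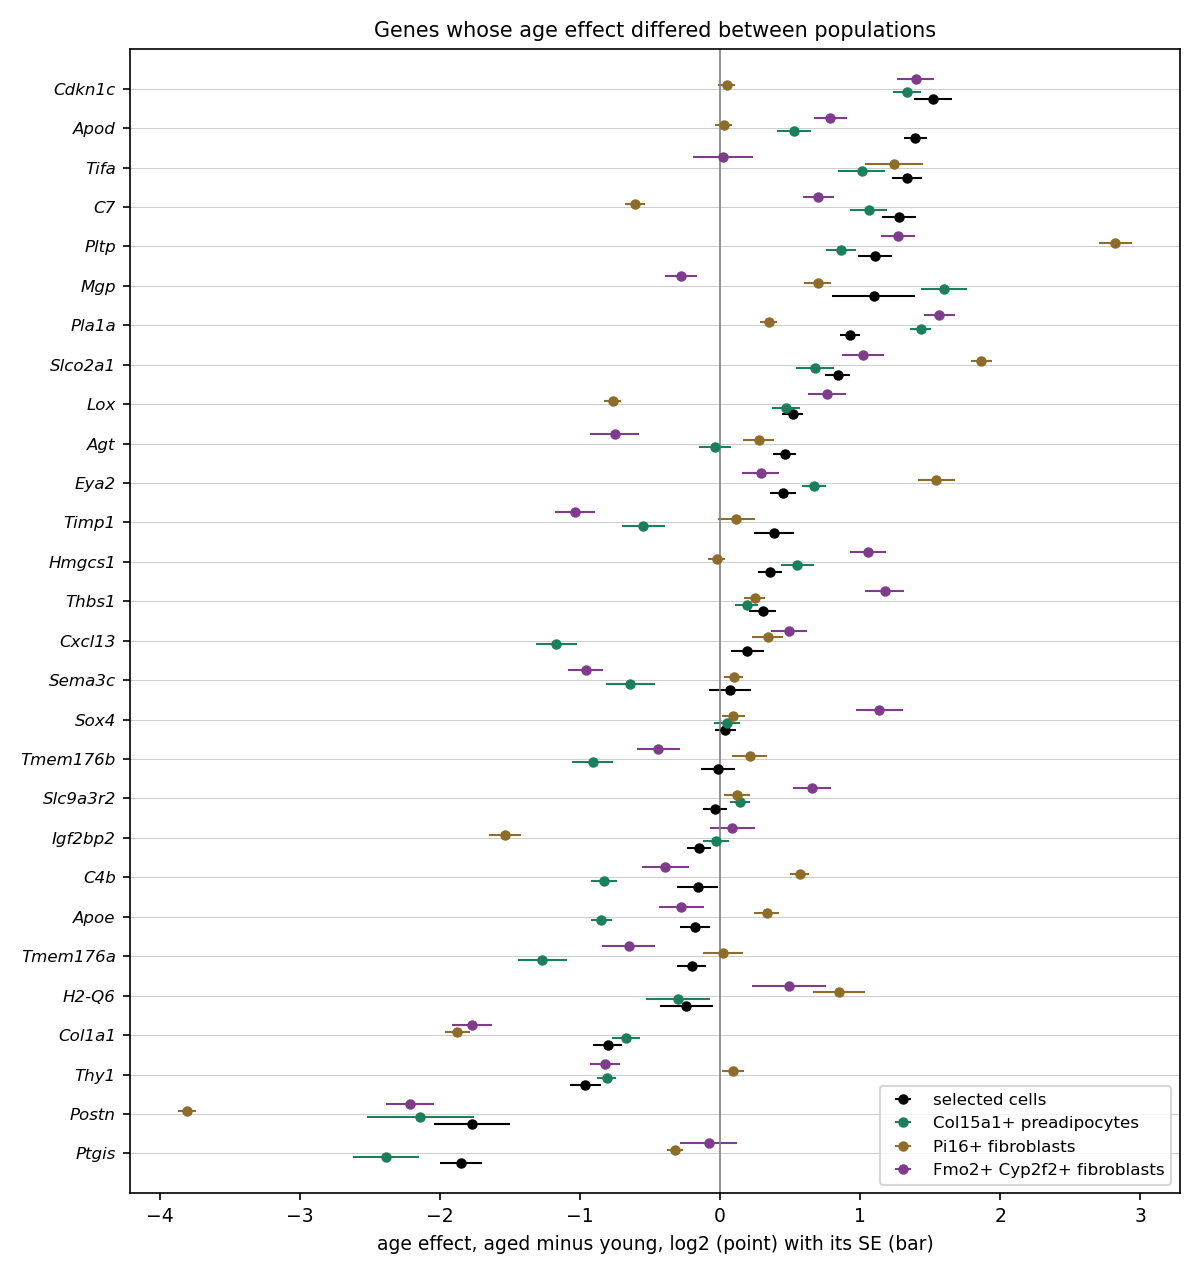
Log2 age effect (aged over young) with its standard error in the gated cells, Col15a1+ preadipocytes, Pi16+ fibroblasts and Fmo2+ Cyp2f2+ fibroblasts, for the genes with the largest differences. Cxcl13 lies near 0 in the gated cells and at -1.17 in Col15a1+ preadipocytes, and Ptgis lies at -1.85 in the gated cells and at -0.32 and -0.08 in the Pi16+ and Fmo2+ Cyp2f2+ fibroblasts.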

How the data were processed

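Single-cell RNA-seq libraries (10x Genomics 3' v3.1) of live CD45- stromal vascular cells of iWAT were analysed, 6 in all. The authors aligned the reads to mm10 with Cell Ranger and deposited 1 filtered matrix of UMI counts per library, with 31053 genes. UMIs are not normalized in these files.

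From these counts the gate was applied as given in the report. The members and gene lists were chosen with earlier results of these data known. No doublet caller was run, and an alternative left out members above the 90th percentile of UMIs of their library. UMIs of each population were summed per library and tested with edgeR 4.0.16 in R 4.3.3 (quasi-likelihood test, filter on low counts, TMM, Benjamini-Hochberg adjusted p under 0.05). The 3 temperatures served as replicates of an age, with temperature as a term, and the 2 ages as replicates of a temperature, with 2 residual degrees of freedom each. Where the age effect was compared between populations, library was a block (4 residual degrees of freedom). CPM beside these tests were scaled by TMM factors. Levels between populations were unscaled CPM, with a pseudocount of 1 CPM and a minimum of 50 CPM in the higher group, and were not tested. Shares were computed after each cell was thinned to 2000 UMIs and compared by exact permutation tests. Python 3.11.15, numpy 2.4.6, scipy 1.17.1 and pandas 2.3.3 were used.

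Named genes were the gate and label markers, the list members with the largest changes, the 10 largest rises and 10 largest falls with age (same direction at 3 temperatures, at least 20 CPM), the 6 and 6 largest in cold, the 20 highest and 10 lowest ratios against the other ASPCs (10 and 10 against Col15a1+ preadipocytes), the 6 and 6 largest differences in age effect, and genes from the study's text. Of these the ones that matter are given. Genes of the comparisons of cells within the gate were chosen after their values were seen. On simulated counts with 200 changed genes, the test for age on 11293 genes recovered 89% of 2-fold changes and 58.4% of 1.5-fold changes, that for temperature on 11495 genes 83.3% and 47.8%, and those for a difference in age effect 78.1% and 50.5% against Col15a1+ preadipocytes (11902 genes), 67.6% and 43.2% against Pi16+ fibroblasts (12530 genes) and 69.1% and 37% against Fmo2+ Cyp2f2+ fibroblasts (10782 genes). Alternatives were DESeq2 1.42.0, RLE size factors, no filter, no covariate, each library left out, a gate of 3 UMIs, at least 3000 UMIs and equal numbers of 480 cells at 2000 UMIs. Subsets of members by Tfpi2, Cyp26b1 or Pi16 were added after seeing the data.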

Additional observations from a re-analysis of the deposited data

Results flagged for a closer look

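The following 31 results had an age effect in the gated cells that differed from that in another population of the same libraries, by edgeR's test of the population by age term. Each value is the log2 age effect in the gated cells minus that in the compared cells. Against Col15a1+ preadipocytes the differences were 1.33 for Cxcl13, 1.12 for Tmem176a, 0.92 for Tmem176b, 0.87 for Apod, 0.67 for Apoe, 0.67 for C4b and -0.50 for Pla1a. Of these, Apod and Apoe passed in each alternative run. Cxcl13, Tmem176a, C4b and Pla1a each lost the call in at least 1 alternative that left out a library, as did Tmem176b without the aged 3D library.

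Against Pi16+ fibroblasts they were 2.04 for Postn, 1.90 for C7, 1.48 for Cdkn1c, 1.41 for Igf2bp2, 1.37 for Apod, 1.28 for Lox, -1.73 for Pltp, -1.53 for Ptgis, -1.13 for H2-Q6, -1.11 for Eya2, -1.06 for Thy1 and -1.02 for Slco2a1. Postn lost the call without the young TN, young 14D, aged 3D or aged 14D library, Thy1 without the young TN, aged 3D or aged 14D library, and Apod without the aged 14D library. H2-Q6 has close paralogs among the class I genes, so its counts are uncertain.

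Against Fmo2+ Cyp2f2+ fibroblasts they were 1.48 for Timp1, 1.45 for Mgp, 1.31 for Tifa, 1.21 for Agt, 0.99 for Sema3c, 0.97 for Col1a1, -1.76 for Ptgis, -1.04 for Sox4, -0.81 for Thbs1, -0.69 for Hmgcs1, -0.67 for Slc9a3r2 and -0.66 for Pla1a. In DESeq2 the adjusted p was 0.752 for Mgp, 0.599 for Thbs1, 0.238 for Slc9a3r2 and 0.0510 for Pla1a.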

How the results depend on the processing

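Depth per library and 3 libraries a side limit which small changes could pass, and the cause of the shifts below was not tested. The 909 genes that changed with age became 349 in DESeq2, 1437 without a filter on low counts, 160 without the temperature term, 239 with equal numbers of cells at 2000 UMIs and 462 in members with Cyp26b1, and 669 to 900 when 1 library was left out. Of the 349 genes, 348 were among the 909 with the same direction. In members with Pi16 at 0, 740 genes changed with age. The 504 genes that changed with temperature became 215 in DESeq2, 1219 without a filter, 0 without the age term (752 at an unadjusted p under 0.05 in edgeR), 98 with equal numbers of cells and 234 in members with Cyp26b1, and 260 (without the aged TN library) to 953 (without the aged 14D library) when 1 library was left out. In members with Cyp26b1 the mean cold effect turned to -0.060 for Cox8b and -0.51 for Cxcl2. The 15 genes that differed from Col15a1+ preadipocytes in age effect became 106 without a filter and 7 at 3 UMIs of the gate genes, and 10 to 38 (without the aged TN library) when 1 library was left out. The 167 genes that differed from Pi16+ fibroblasts became 529 without a filter and 55 to 152 when 1 library was left out, with 55 without the aged 3D, 56 without the aged 14D and 95 without the young 14D library. The 85 genes that differed from Fmo2+ Cyp2f2+ fibroblasts became 46 in DESeq2, 209 without a filter, 53 at 3 UMIs of the gate genes and 44 (without the aged 14D library) to 112 when 1 library was left out, with 50 without the young 14D library. The share of ASPCs in the gate, 0.655 percentage points higher in aged mice, turned to -0.233 as a share of the Pi16-low ASPCs, and was 0.439 to 1.02 when 1 library was left out. Of the checks of single named genes 2456 kept direction and call, 576 lost the call and 2 turned, and 6 where DESeq2 gave no adjusted p were left out. No paired analysis was possible because the replicate numbers pair no libraries (each age and temperature has 1 library, number 1). The main tests matched libraries by the temperature term and populations by a library block.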
